A study of Myotis pilosus with 4 samples.

Results

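The comparison described here set white adipose tissue (WAT) of hibernating bats against WAT of active bats of Myotis ricketti, a fishing bat that GEO lists as Myotis pilosus. It used 2 of the 4 small RNA libraries of the study, HA (hibernating) and AA (active, a state the sample labels call aroused). The members were the mature miRNAs whose sequences the study lists, all of them included, of which 119 are conserved in other animals and 77 were found in this bat alone (here called bat-specific). Each library was made from total RNA of the intra-abdominal fat of 3 adult bats, mixed in equal amounts before sequencing. No treatment or genetic change was applied to either group. The active bats were caught in autumn and the hibernating bats towards the end of winter at the same site, so the state and the season cannot be told apart. With 1 pooled library per state there is no measure of the spread between bats, and no p-value can be given for any difference. The intervals printed are exact 95% Clopper-Pearson intervals for counting error only and leave out the spread between bats. They treat each read as independent, and PCR copies of 1 molecule are not, so they can be too narrow even for counting error.

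A miRNA is a short RNA that pairs with matching sites in messenger RNAs and lowers their translation or stability. Bases 2 to 8, called the seed, dominate the choice of targets, so miRNAs with the same seed share many targets. The 2 arms of the hairpin precursor give the 5p and 3p miRNAs, and the 3' end of either is often trimmed or extended by a base or more. White fat stores triglycerides that a hibernating mammal burns through winter, whereas brown fat burns fuel for heat. Several miRNAs take part in forming white or brown fat cells, in insulin signalling and in lipid handling.

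HA held 11542470 clean reads and AA 11437337, so the depths were alike. Reads over 25 nt made up 6.85% of HA (95% exact interval 6.83 to 6.86%) and 0.628% of AA (0.623 to 0.632%). Tags identical to a listed miRNA held 13.2% of the clean reads in HA (13.16 to 13.20%) and 20.9% in AA (20.91 to 20.95%). The share of HA was lower also when 3' length variants were added to each miRNA (30.9% against 48.2%) and when only reads of 18 to 25 nt were counted (14.1% against 21.1%). Bulk libraries cannot tell fewer cells of a type from less of a miRNA per cell. The label WAT could be checked only against other tissues, since no listed miRNA defines the fat cell. The brain marker miR-124a-3p had 286 and 292 reads in HA and AA, against 415697 and 449967 in the brain libraries of the same bats. In the same order, miR-219-3p had 12 and 18 reads in WAT against 39847 and 49302 in brain. The gap was smaller for other brain markers. miR-129-3p had 1104 and 2060 reads in WAT against 34053 and 14360 in brain, and miR-129-5p 89 and 124 against 376 and 594. Markers of skeletal muscle were present in both WAT libraries, and miR-1-3p alone held 1.70% of the clean reads of HA and 1.77% of AA.

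The conserved miRNAs that carry the comparison are given first, read 5′ to 3′ with T for U as in the deposited tags, and capitals mark the seed. The first 5 belong to lists on brown fat and fat cell differentiation, the next 3 include the most abundant tags, and the last 6 had among the highest or lowest ratios outside those lists.
miR-378-3p: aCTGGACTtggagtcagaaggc
miR-193-3p: aACTGGCCcacaaagtcccgct
miR-455-3p: gCAGTCCAtgggcatatacac
miR-448-3p: tTGCATATgtaggatgtccca
miR-222-5p: gGCTCAGTagtcagtgta
miR-29-3p: tAGCACCAtctgaaatcggtta
miR-199-3p: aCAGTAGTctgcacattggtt
miR-100-5p: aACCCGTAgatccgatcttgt
miR-200a-3p: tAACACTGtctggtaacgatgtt
miR-200b-3p: tAATACTGccgggtaatgatgg
miR-7c-5p: tGGAAGACtagtgatttt
miR-92b-3p: tATTGCACtcgtcccggcct
miR-574a-5p: tGAGTGTGtgtgtgtgagt
miR-3135-5p: gGCTGGTCcgagtgcagt

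The bat-specific miRNAs with the highest or lowest ratios, or named for another reason in the text, are given letters. Capitals again mark the seed. The letters A to F stand for 6 of the 10 highest ratios and G for 1 of the 10 lowest.
bat-A: gGGGCACGccggccttgcgg
bat-B: cCCGGCGGggaaggtggct
bat-C: aGGAGGGAgctgatcgatgt
bat-D: gTGAAGAGacatgagaggt
bat-E: gCGTTGGTggtatagtggtgag
bat-F: aGAGGATGcattctgagtgg
bat-G: tGTGGCGGagttggtgac
bat-H: gCGTTGGTggtatagtgg
bat-I: aCTCTGATcgttttttcactg
bat-J: tACCGATTggatggttta
bat-K: gATCGGGCctaaaccggcagtt
bat-L: tAAGCCAGcagtcagacatccc
bat-M: aGAAAAGGtgttggttgat

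Of these miRNAs, 23 had no read in either WAT library, 154 were read in both, 7 in HA only and 12 in AA only. Of the 173 with a read, 31 had under 10 reads in the pair, which left 142 miRNAs with a ratio. Ratios are log2 of HA over AA after TMM scaling, which sets a weighted mean of the ratios to 0, and a miRNA was counted as different when its ratio was 1 or more in size. By this rule 29 of 142 miRNAs (20.4%) were higher in HA and 41 of 142 (28.9%) were lower. With the whole counting interval beyond 1, these became 15 (10.6%) and 18 (12.7%).

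The 2 classes of miRNA did not split alike. Among 81 conserved miRNAs with a ratio, 7 were higher and 28 lower in HA, with a median log2 ratio of -0.41. Of the 61 bat-specific ones, 22 lay above and 13 below, and the median was -0.0089. In all, the conserved miRNAs gave 1512257 reads in HA against 2388060 in AA, and the bat-specific miRNAs 8602 and 5929. Most bat-specific miRNAs were sparse, and only 27 of 77 reached 100 reads in the pair, against 63 of 119 conserved miRNAs.

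The direction of a ratio near 0 depends on the scaling. Scaling by clean reads lowers every ratio by 0.35, and 23 miRNAs were then higher and 54 lower. Scaling by the reads of the listed miRNAs raises every ratio by 0.32 and gave 33 and 31, and the DESeq2 median of ratios raises them by 0.25 and gave 30 and 33. When TMM was computed within each class, conserved ratios rose by 0.78 and bat-specific ratios fell by 0.44, which gave 37 and 32. Of the 70 miRNAs counted as different, 18 higher and 20 lower ones stayed past 1 under each of the 8 alternatives (other scalings, other counting rules and thinning).

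**Figure D1:**
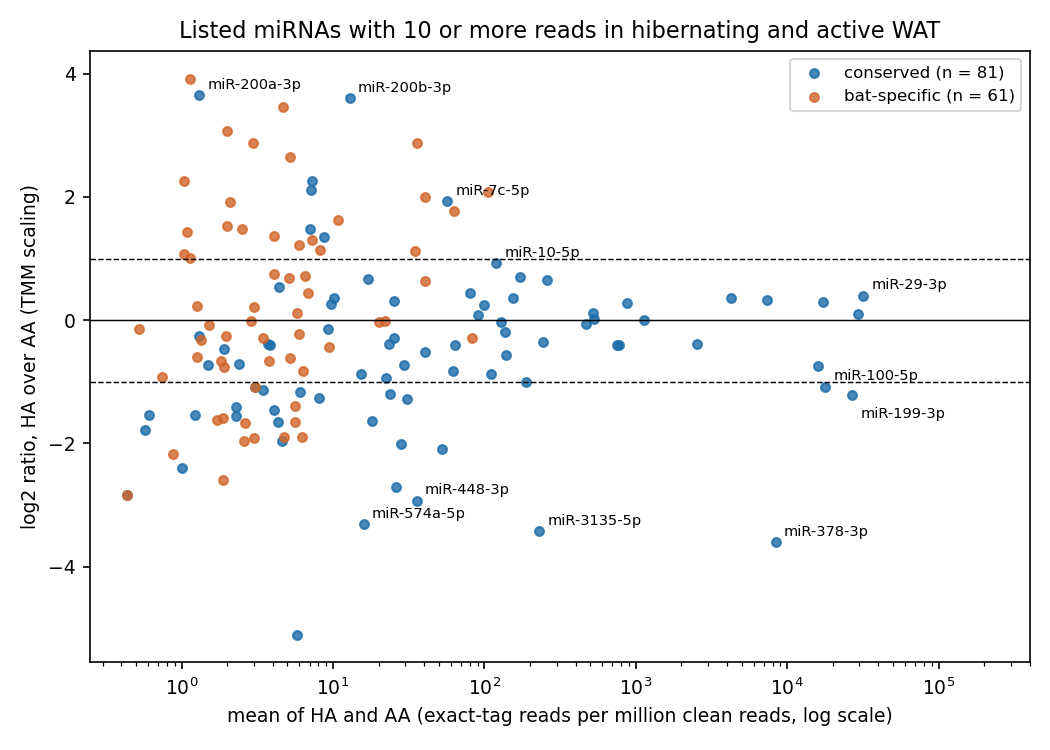
Level (mean of HA and AA, exact-tag RPM, reads per 1000000 clean reads, log scale) against the log2 ratio of HA over AA for the 142 miRNAs with 10 or more reads, conserved miRNAs in blue and bat-specific ones in orange, with dashed lines at -1 and 1. Where a library had 0 reads the point is a bound computed with 3 reads. miR-378-3p stands alone at the bottom right, and the bat-specific miRNAs lie at low levels on both sides of 0.

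By exact tag, the 12 most abundant miRNAs held 95.8% of the listed reads in HA and 96.3% in AA, and their order differed between the libraries. In AA the first by this count was miR-199-3p, a miRNA of mesenchymal and vascular cells, with 19.2% of the listed reads, followed by miR-7d-5p with 15.3% and miR-29-3p with 14.9%. In HA the first by exact tag was miR-29-3p, which targets collagens and parts of insulin signalling, with 24.6%, followed by miR-7d-5p with 20.6%, miR-1-3p with 12.9% and miR-199-3p with 10.3%. miR-29-3p itself had 373410 reads in HA against 357670 in AA, a log2 ratio of 0.40 (0.39 to 0.40).

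The order depends on the tags counted. Once 3' variants were added, miR-100-5p (844107 reads), miR-378-3p (831788) and miR-199-3p (810511) came first in AA, ahead of miR-7d-5p (777059). In HA, miR-7d-5p (714290 reads) then came first, followed by miR-29-3p (464410) and miR-100-5p (426375).

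Most of the loss of listed reads came from a few miRNAs. On the RPM scale, exact tags of listed miRNAs were lower by 77552 RPM in HA. The sum over miR-199-3p, miR-100-5p, miR-378-3p and miR-7b-5p, chosen after their values were seen, made up 89.2% of that difference. Of it, miR-199-3p gave 34.3%, miR-100-5p 21.0%, miR-378-3p 19.0% and miR-7b-5p 14.9%. By reads that include 3' variants, the difference was 172813 RPM and the same miRNAs made up 90.8% of it, but the largest part was then that of miR-378-3p with 38.5%, before miR-199-3p with 24.0%, miR-100-5p with 21.3% and miR-7b-5p with 6.88%.

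The list of miRNAs known from brown fat held the abundant miRNA with the lowest ratio. miR-378-3p lies in an intron of Ppargc1b, the gene of a coactivator of mitochondrial metabolism, and is known to promote brown fat expansion. It had 11775 reads in HA against 180178 in AA, 12.1 times fewer after scaling (log2 ratio -3.60, -3.63 to -3.57). Its rank among the listed miRNAs was 7 in AA and 10 in HA by exact tag, and 2 in AA and 10 in HA with 3' variants added.

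miR-193-3p, from the miR-193b-365 cluster that takes part in brown fat differentiation, had 106 and 541 reads (log2 ratio -2.02, -2.33 to -1.71). miR-455-3p, which promotes brown fat formation, had 65 and 535 reads (-2.70, -3.10 to -2.33). These were lower in HA by the rule.

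The cluster partner of miR-193 did not pass 1 on either arm. miR-365-3p had 330 and 598 reads (-0.52, -0.72 to -0.33) and miR-365-5p 108 and 113 (0.27, -0.12 to 0.66). In all, 3 of 5 members were lower and none was higher, against 28 lower and 7 higher of 81 conserved miRNAs. The list's median was -2.02 against -0.29 over the 142 miRNAs. With 3' variants added the same number was lower, and the median was -1.05 against 0.066 over all with a ratio.

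The miRNAs of fat cell differentiation moved in both directions. miR-448-3p, which restrains fat cell formation and lies in the Htr2c gene of the serotonin receptor, had 77 reads in HA against 739 in AA (log2 ratio -2.93, -3.28 to -2.59). miR-130-3p, which represses the fat cell regulator Pparg, had 1224 and 3108 reads (-1.01, -1.10 to -0.91). Its ratio crossed the limit narrowly by exact tag, and was -0.69 when scaled by listed reads and -0.23 with TMM by class. Scaled by clean reads it was -1.36, and with 3' variants added -1.35 (7809 and 23466 reads).

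For miR-222-5p, HA gave 133 reads and AA 35, 4.80 times more in HA after scaling (2.26, 1.72 to 2.84). Its partner arm miR-222-3p, known to decline as fat cells mature, had 3277 and 2639 reads (0.65, 0.57 to 0.72). The abundant miR-22-3p (9822 and 10259 reads, 0.27) and miR-148-3p (944 and 1129 reads, 0.078), both described as promoting fat cell formation, did not pass the limit.

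miR-221-5p was the one member whose direction turned with the counting rule. Its exact tag, only 18 nt long, had 19 and 51 reads (-1.09, -1.93 to -0.30). Tags that begin with these 18 bases had 3704 and 2018 reads, a log2 ratio of 1.11. In HA, 99.5% of the reads of miR-221-5p were longer than the listed sequence, and in AA 97.5%. miR-221-3p had 2 reads in each library. Of the 8 members, 7 had a ratio by exact tag, with 1 higher, 3 lower and a median of 0.078. Once 3' variants were added all 8 had one, with 3 higher (miR-221-3p among them), 2 lower and a median of 0.54. The balance of the list thus turned with the tags counted.

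**Figure D2:**
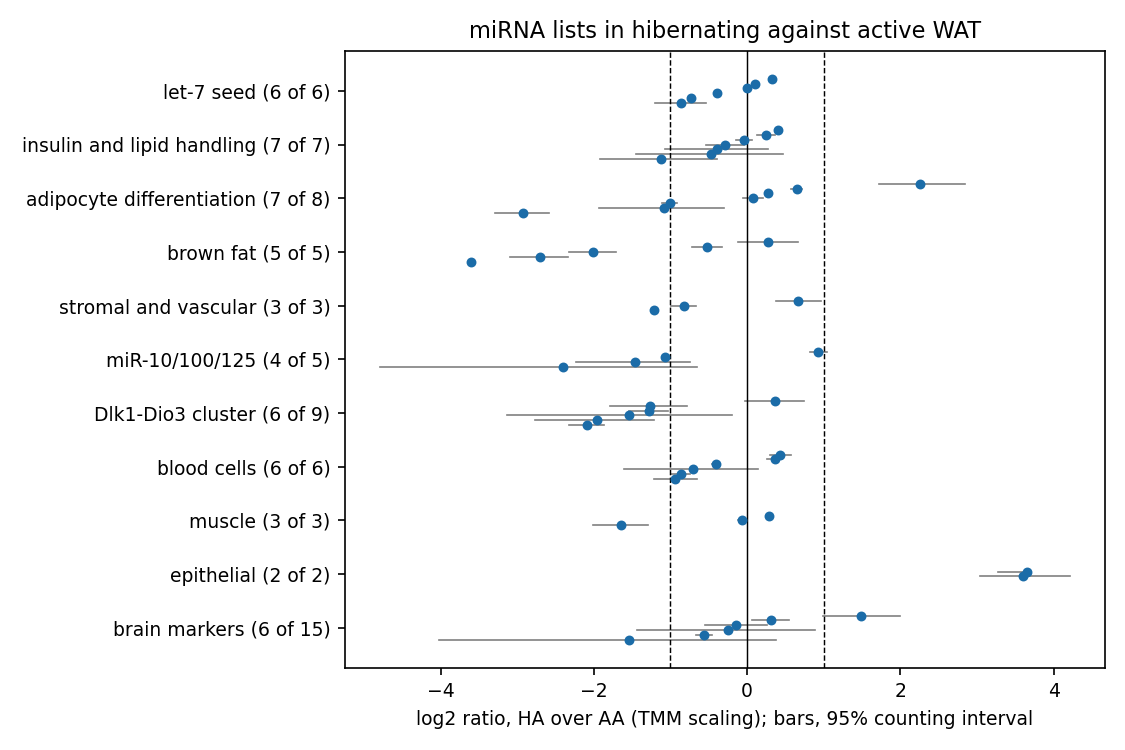
log2 ratio of HA over AA (x axis, TMM scaling) for the members of 11 miRNA lists, 1 point per miRNA with its 95% counting interval, and in brackets the number of members with 10 or more reads. The brown fat and Dlk1-Dio3 lists lie mostly left of 0 and the epithelial list right of 3, where miR-200a-3p is a lower bound because AA had 0 reads.

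Among the miRNAs of insulin signalling and lipid handling, differences were small. Of 7 members, 1 was lower, none was higher and the median was -0.29. The lower one was miR-30a-3p with 21 and 58 reads (-1.13, -1.92 to -0.39), and with 3' variants added it had 156 and 301 reads and a ratio of -0.71. miR-24-3p had 1290 and 1670 reads (-0.036), miR-30c-3p 1113 and 1182 (0.25) and miR-30b-3p 228 and 351 (-0.29).

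miR-29-5p, the minor arm of miR-29, had 32 and 53 reads (-0.39, -1.07 to 0.27), and miR-30d-3p had 16 and 28 (-0.47, -1.46 to 0.47). Their intervals include 0.

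The stromal and vascular list was led by miR-199-3p, with 156158 reads in HA against 458628 in AA (log2 ratio -1.22, -1.23 to -1.21). It was -1.02 with 3' variants added and -0.90 when scaled by listed reads. Its 5p arm had 442 and 988 reads (-0.82), whereas miR-145-3p, from smooth muscle and vessel walls, had 218 and 173 reads (0.67, 0.38 to 0.97). The members thus lay on both sides of 0.

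The ancient group of miR-10, miR-100 and miR-125 was also split. miR-100-5p, which acts on the mTOR and insulin-like growth factor pathway, had 111620 reads in HA against 297206 in AA (-1.08, -1.09 to -1.07). It was -0.75 with 3' variants added, so it did not pass 1 by that rule. miR-10-5p, which sits in the Hox clusters and has another seed than miR-100-5p, had 1655 and 1097 reads (0.93, 0.82 to 1.04), and 1.11 with 3' variants. miR-100-3p had 21 and 73 reads (-1.46) and miR-125-3p 3 and 20 (-2.40, -4.79 to -0.65). With 3' variants added miR-125-3p had 541 and 1049 reads and a ratio of -0.72. miR-10-3p had 0 and 2 reads and no ratio.

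The let-7 family, known for maintaining the differentiated state and for acting on insulin signalling, has the seed GAGGTAG, and its 6 members carry miR-7 names in the study's list. Together they had 549220 reads in HA against 751901 in AA, and a log2 ratio of -0.12 (-0.12 to -0.11). No member passed 1. The ratios ranged from -0.86 for miR-7a-5p (107 and 246 reads) to 0.32 for miR-7e-5p (83869 and 84535 reads).

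Within the family, miR-7b-5p and miR-7d-5p differ late in the sequence and differed in ratio. miR-7b-5p had 118816 and 249770 reads (-0.74), and miR-7d-5p 312837 and 366251 (0.11). Once 3' variants were assigned to the closest member, the ratios were -0.27 and 0.12. miR-7f-5p (-0.39) came to -0.044 in the same way.

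Markers of other cells did not move as 1 block. The muscle list gave 17409 RPM in HA and 18253 RPM in AA. miR-1-3p (196202 and 202291 reads, 0.29) and miR-206-3p (4662 and 6139 reads, -0.061) did not pass the limit, whereas miR-133-3p was lower (84 and 331 reads, -1.64, -2.01 to -1.29). Of the 6 blood cell miRNAs none passed 1 by exact tag, with ratios from -0.94 for miR-486-3p to 0.43 for miR-142-5p of leukocytes. miR-142-3p (18 and 37 reads, -0.70) was at -1.05 when scaled by clean reads and at -1.11 with 3' variants added (76 and 194 reads). Their summed level was 879 RPM in HA and 1367 RPM in AA. The 15 brain markers summed to 139 and 225 RPM, of which miR-129-3p alone gave 95.6 and 180 RPM. Of the 15 markers, 6 had no read in WAT, and of the 6 with a ratio 1 was higher and 1 lower. The higher one was miR-124b-3p (111 and 50 reads, 1.49) and the lower one miR-9-3p (3 and 11 reads, -1.54). Neither passed 1 with 3' variants added, miR-124b-3p with 395 and 306 reads (0.61) and miR-9-3p with 17 and 19 (0.078).

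The epithelial miRNAs stood apart. miR-200a-3p and miR-200b-3p, which keep epithelial cells from taking a mesenchymal form, were the 2 members of that list and were higher in HA. miR-200b-3p had 269 reads in HA against 28 in AA, 12.1 times more after scaling (log2 ratio 3.60, 3.04 to 4.22). miR-200a-3p had 30 reads in HA against 0 in AA, at least 12.6-fold higher with 3 reads as the floor of AA.

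The other tags of these miRNAs were also higher in HA. With 3' variants, miR-200b-3p had 540 and 39 reads and miR-200a-3p 131 and 4. The second commonest tag of miR-200b-3p, with an a added at the 3' end (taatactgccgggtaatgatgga), had 151 and 8 reads. The summed level of the list was low, 25.9 RPM in HA and 2.45 RPM in AA. Whether more epithelial cells in the dissected fat played a part was not tested.

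The miRNAs of the imprinted Dlk1-Dio3 cluster, a region tied to fat cell and muscle development, were mostly lower in HA. Of 9 members, 6 had a ratio, of which 5 were lower and none higher. Among all 81 conserved miRNAs with a ratio, 28 were lower and 7 higher. miR-432-5p had 188 and 1014 reads (-2.10, -2.33 to -1.87), miR-381-5p 18 and 88 (-1.95, -2.77 to -1.21) and miR-485-3p 173 and 532 (-1.28, -1.54 to -1.03). miR-381-3p (46 and 140 reads, -1.27) and miR-544-5p (6 and 22 reads, -1.54) were lower too.

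miR-154-3p was the member that was not lower, with 117 and 115 reads (0.36, -0.023 to 0.75). By the summed reads the cluster had a ratio of -1.45 (-1.59 to -1.32). With 3' variants 3 of 7 members were lower, against 25 of 95 conserved miRNAs. miR-381-3p and miR-485-3p then had ratios of -0.70 and -0.66. miR-432-3p, miR-539-5p and miR-539-3p had at most 3 reads in either library and no ratio.

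Among the 90 miRNAs with 100 or more reads, the 10 lowest ratios included 9 conserved miRNAs and the 10 highest included 4. Besides those of the lists, miR-574a-5p had 27 and 338 reads (-3.31, -3.93 to -2.74). Its shorter form miR-574b-5p, which lacks the last base, had 3 and 130 (-5.10, -7.40 to -3.52). Both consist largely of a GT repeat, and both were also low in hibernating brain, with 4 and 31 reads and 1 and 19 reads.

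miR-3135-5p had 361 reads in HA against 4874 in AA (-3.42, -3.58 to -3.26). With 3' variants added it had 2694 and 17902 reads and a ratio of -2.49. Of the tags with its bases 2 to 17, 11.7% in HA and 1.69% in AA were over 25 nt. Whether the tags listed as miR-3135-5p come from a miRNA hairpin or from another RNA was not tested.

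On the higher side, miR-7c-5p, whose seed GGAAGAC is that of miR-7 and not of let-7, had 983 and 325 reads (1.93, 1.75 to 2.12), and 1.41 with 3' variants. miR-92b-3p had 127 and 37 reads (2.12, 1.58 to 2.68). With 3' variants its ratio was 1.14. Of the 20 miRNAs at the extremes, 19 stayed past 1 under each of the 8 alternatives, the exception being bat-F.

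**Figure D3:**
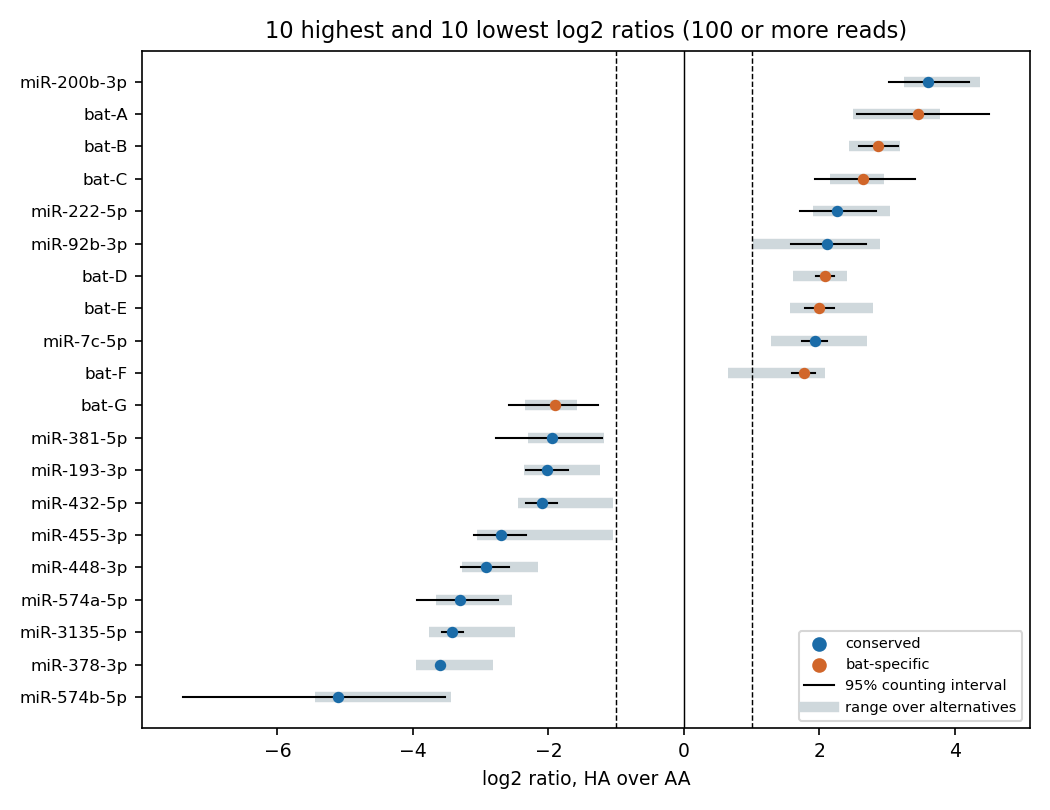
log2 ratio of HA over AA (x axis) of the 10 highest and 10 lowest miRNAs with 100 or more reads, conserved in blue and bat-specific in orange, with the 95% counting interval (black) and the range over the other scalings and counting rules (grey). No grey bar reaches 0, those of miR-455-3p and miR-432-5p end just beyond -1, and that of bat-F ends at 0.66.

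Shared seeds did not always mean shared ratios. The listed miRNAs had 161 seeds, of which 21 were shared by 2 or more. In 8 of the 16 seeds with 2 or more members that had a ratio, the members' ratios spread over more than 1. Under the seed ATTGCAC, miR-92a-3p, of the growth-promoting miR-17-92 cluster, had 767 and 1767 reads (-0.87, -0.99 to -0.74). miR-92b-3p (2.12) and miR-363-3p (134 and 66 reads, 1.36, 0.92 to 1.81) were higher. The summed reads of this seed by exact tag were 1028 in HA and 1870 in AA. By that count the seed as a whole was lower although 2 of 3 members were higher. With 3' variants added, miR-92a-3p had 15009 and 21939 reads (-0.31) and miR-92b-3p stayed past 1 (1.14). miR-363-3p then had 325 and 204 reads and did not pass 1.

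The seed AGCACCA of miR-29-3p and miR-285-3p held 32833 RPM in HA and 31840 RPM in AA. Its members lay at 0.40 and 0.11.

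For 38 hairpins with both arms listed, the arms together had 10 or more reads in each library. The more abundant arm was the same in HA and AA for 37 of them, and the 5p share had intervals that did not overlap for 6. The share of miR-7c-5p was 96.5% in HA (95.1 to 97.5%) and 76.1% in AA (71.8 to 80.1%), since miR-7c-3p had 36 and 102 reads. The 5p share of miR-486, a miRNA of red cells and muscle, was 92.2% and 82.8%, and that of miR-222 3.90% and 1.31%. The 5p share of miR-365 was 24.7% and 15.9%. With 3' variants added, the miR-7c share was 98.3% and 91.0% and the miR-365 share 86.9% and 79.2%, so the listed 3p tag of miR-365 was the larger of the listed tags and not of the arm.

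Bat-specific miRNAs made up most of those higher in HA. bat-D was the most abundant of them in HA, with 1879 reads against 559 (log2 ratio 2.09, 1.95 to 2.22). Its listed partner arm bat-I had 177 and 72 (1.63, 1.23 to 2.05), so both listed arms were higher. The paper reports larger shares of ribosomal and transfer RNA reads in HA than in AA. Whether the bat-specific tags come from hairpins or from such RNAs was not tested. bat-B had 707 and 122 reads (2.87, 2.59 to 3.16), bat-A 96 and 11 (3.46, 2.56 to 4.51) and bat-C 99 and 20 (2.64, 1.94 to 3.42).

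bat-F had 1064 and 394 reads (1.77, 1.60 to 1.94), but 1.02 with 3' variants and 0.66 by tags with bases 2 to 17. bat-G was lower in HA, with 25 and 118 reads (-1.90, -2.59 to -1.27). With 3' variants added bat-G had 743 and 3551 reads and a ratio of -2.02.

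bat-E and bat-H share their first 18 bases, and the shorter bat-H is contained in bat-E. bat-E had 713 and 225 reads (2.00, 1.78 to 2.22) and bat-H 504 and 291 (1.13, 0.92 to 1.34). Of the tags with their bases 2 to 17, 47.6% in HA were over 25 nt, against 2.56% in AA. bat-I (44.8% and 12.6%) and bat-M (19.5% and 1.35%) had a like difference, and bat-M itself had 58 and 10 reads (2.87).

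Such long tags were commoner among the bat-specific miRNAs higher in HA. At least 10% of the core tags of HA, that is, those with bases 2 to 17, were over 25 nt for 9 of the 22 higher, 4 of the 26 that did not pass and 1 of the 13 lower ones. Among the 81 conserved miRNAs it was 1. The long tags are not counted in the exact tag ratios, since no listed sequence exceeds 25 nt, and whether they and the listed tags come from the same precursor was not tested.

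bat-K was the most abundant bat-specific miRNA in AA, with 747 reads in HA against 1157 in AA by exact tag (-0.29, -0.43 to -0.16). That tag held 9.96% of the reads of bat-K in HA and 6.17% in AA. With 3' variants added bat-K had 7499 and 18754 reads and was lower in HA by the rule. bat-J was the member whose ratio moved most upwards with 3' variants among those with 100 reads, from -0.22 (55 and 81 reads) to 1.65 (1472 and 553). The 3 bat-specific miRNAs with the seed GATCAGC had 58 and 222 reads in sum (-1.60, -2.04 to -1.18), and each of them was lower by the rule. Their sequences are contained in one another, so these are not 3 separate results.

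A family of 8 bat-specific 3p miRNAs showed different ratios for near-identical sequences. They fall into 3 forms over the 20 bases they share, shown with capitals at the positions where the forms differ.
form 1: aaagaAacagaaCttccgga
form 2: aaagaAacagaaTttccgga
form 3: aaagaCacagaaTttccgga
Form 2 differs from form 1 by C13T, and form 3 by A6C and C13T, counted from the 5′ end. The 3 miRNAs of form 1 had 170 reads in HA against 80 in AA (log2 ratio 1.42, 1.03 to 1.83), and each of them was higher by the rule. Those 3 sequences are contained in one another, so they are not separate results. The 3 of form 2 had 27 and 50 (-0.55, -1.28 to 0.15) and the 2 of form 3 had 51 and 63 (0.031, -0.53 to 0.59). The interval of form 1 does not overlap those of the other two forms.

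Tags longer than the listed sequence were commoner in HA for most of the abundant miRNAs. The clean reads as a whole were also longer in HA, with 7.97% of 24 nt against 3.37% in AA. Reads of 25 nt made up 4.37% of HA and 0.717% of AA. The paper gives a higher RNA integrity number for HA than for AA. Whether RNA quality or size selection played a part was not tested. Of 37 miRNAs with 1000 or more reads in each library when 3' variants were added, 31 had a higher share of tags longer than the listed sequence in HA. The median of that share was 31.3% in HA and 21.1% in AA, and the median share of shorter tags was 23.1% and 27.2%. The longer tags of miR-7b-5p made up 11.1% in AA and 34.2% in HA, those of miR-7d-5p 9.11% and 26.9% and those of miR-24-3p 42.2% and 64.6%. The 6 exceptions were miR-129-3p, miR-285-3p, miR-486-5p, miR-503-5p, bat-D and bat-F. For the 28 of these miRNAs with as many reads in both brain libraries, the share was higher in hibernating brain for 15 and higher in HA for 25.

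**Figure D4:**
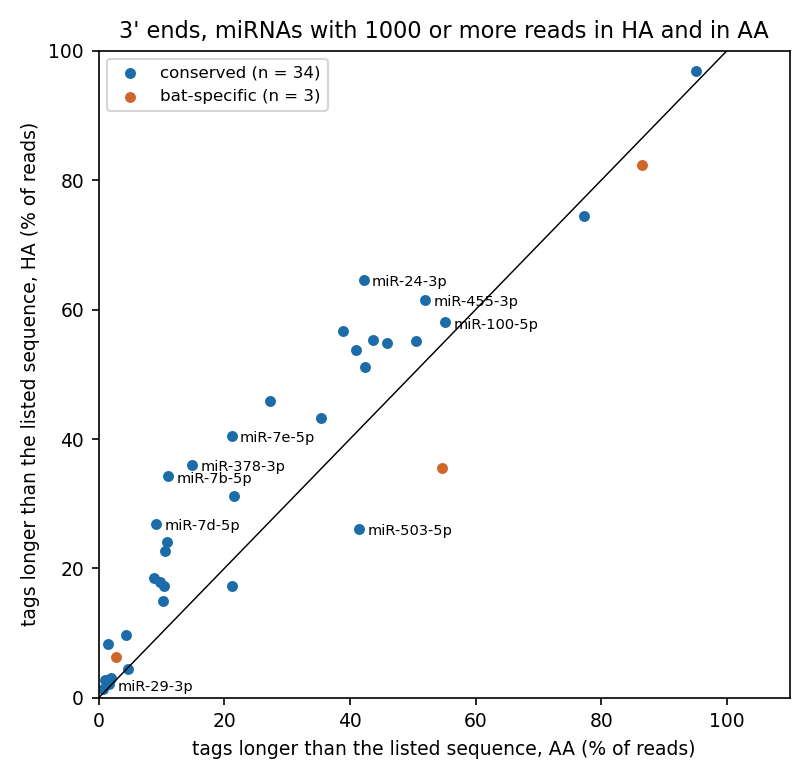
Share of reads longer than the listed sequence, AA on the x axis and HA on the y axis (percent of the reads of each miRNA with 3' variants added), for the 37 miRNAs with 1000 or more reads in each library, with a line of equal shares. 31 points lie above the line, and miR-7b-5p, miR-7d-5p and miR-378-3p lie far above it.

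miR-378-3p shows what this does to a count. Its 4 commonest tags, from 20 to 23 nt, are given here in lower case throughout.
20 nt: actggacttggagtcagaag
21 nt: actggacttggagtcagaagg
22 nt (listed): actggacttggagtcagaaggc
23 nt: actggacttggagtcagaaggca
The 21 nt tag had 11064 reads in HA against 347139 in AA (log2 ratio -4.73), and was the commonest in AA. The 22 nt tag had 11775 and 180178 (-3.70 in the scaling of all variants) and the 20 nt tag 6445 and 73838 (-3.28). The 23 nt tag had 10523 and 66266 (-2.42). All these forms were lower in HA, by amounts that differed by 2.32 on the log2 scale, and in sum miR-378-3p had 70837 and 831788 reads and a ratio of -3.32.

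For miR-455-3p the choice of tag mattered more. The listed 21 nt tag had a ratio of -2.70, whereas the commonest form, of 20 nt (gcagtccatgggcatataca), had 325 and 594 reads (-0.63). In sum it had 1192 and 2905 reads (-1.05). Of the 142 miRNAs, 119 kept the sign of their ratio with 3' variants added and 15 moved by 1 or more. Of the 70 counted as different by exact tag, 55 passed 1 in the same direction, 13 came under 1 and 2 passed 1 in the opposite direction, miR-221-5p and miR-181c-3p.

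**Figure D5:**
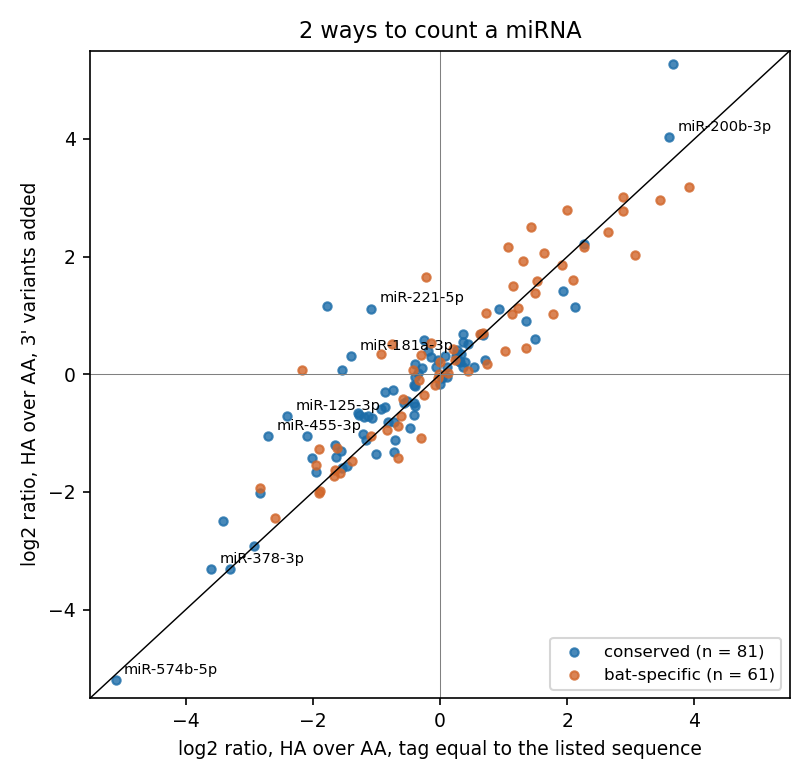
log2 ratio of HA over AA by the exact tag (x axis) and with 3' variants added (y axis) for the 142 miRNAs, with a line of equal values. Most points follow the line, and miR-221-5p lies in the upper left, where the direction turns.

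Some miRNAs had 0 reads in 1 library and over 3 in the other. Besides miR-200a-3p (30 and 0) these were miR-285-2-5p (8 and 0), miR-181c-3p (0 and 13), miR-7e-3p (0 and 8), miR-219-5p (0 and 6), miR-138-3p (0 and 4) and bat-L (0 and 6). With 0 reads, a level of up to 3 reads is possible. With 3' variants added, all but miR-138-3p were read in both libraries, and miR-181c-3p had 295 reads in HA against 156 in AA (1.16). Its absence by the listed sequence was thus an absence of 1 tag.

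The brain libraries of the same bats, scaled in the same way, give values to set beside WAT. miR-378-3p had 1459 reads in hibernating and 4624 in active brain (log2 ratio -1.66), against -3.60 in WAT. Its brain reads with 3' variants added were 13833 and 19690, with a ratio of -0.81, which does not pass 1, against -3.32 in WAT. miR-222-5p had 98 and 24 (2.04), against 2.26 in WAT, and with 3' variants added 1.54 against 2.22. miR-448-3p had 3829 and 4138 (-0.10), against -2.93, and miR-455-3p 209 and 201 (0.065), against -2.70. miR-200b-3p had 24 and 99 (-2.04), against 3.60. The difference between the tissues was not tested, since neither has replicates.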

How the data were processed

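The authors purified small RNA by gel, sequenced it on an Illumina instrument and trimmed and quality-filtered the reads. Each deposited file lists the distinct sequences (tags) of a library, 18 to 30 nt long, with raw read counts. The 196 mature sequences came from the study's supplementary list, none of whose values was used, and 1 tag column per library held the counts. In the main count a miRNA was the tag equal to its listed sequence. Ratios were scaled by TMM in edgeR 4.0.16 over the 196 miRNAs and given at 10 or more reads in HA and AA together, with a floor of 3 reads for a 0 and no ratio when both had 3 or fewer. Intervals are exact Clopper-Pearson intervals (SciPy 1.17.1). With 3' variants, tags that begin with the first 18 nt were added to the listed miRNA with the longest common start, ties left out. This rule was chosen after seeing the data, because miR-7b-5p and miR-7d-5p share those bases. Other alternatives were DESeq2 1.42.0 size factors, clean reads, listed reads, tags with bases 2 to 17, and thinning to equal depth. The miRNAs named were the 12 most abundant, the 10 highest and 10 lowest ratios at 100 or more reads, those with 0 reads in 1 library, those whose ratio moved by 1 or more when all tags that begin with the first 18 nt were counted (100 or more reads under each rule), and the lists. The members and lists were chosen with earlier results of these data known. The ratio step was tested on simulated data. No genome was used, so the hairpins and the origin of the listed tags were not checked.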

Additional observations from a re-analysis of the deposited data

Results flagged for a closer look

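miR-200b-3p differed in opposite directions in the 2 tissues, with a log2 ratio of hibernating over active of 3.60 in WAT (269 and 28 reads) and -2.04 in brain (24 and 99 reads). It was the single miRNA with 100 or more reads in each tissue that passed 1 in size in both and in opposite directions. The difference was not tested, since each group is 1 library.

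Reads over 25 nt, which no listed miRNA reaches, made up 6.85% of the clean reads in HA, against 0.628% in AA.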

How the results depend on the processing

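With 1 pooled library per state no library could be left out. No paired analysis was possible because each group has 1 sample and no test was run. The number of miRNAs past 1 lay from 23 to 37 (higher) and from 31 to 54 (lower) over the scalings, counting rules, thinning, no minimum of reads and nested sequences. It moved further with a minimum of 100 reads (17 higher, 21 lower), with the whole interval beyond 1 (15 and 18) and with a size of 2 or more (13 and 13), which by construction keep fewer miRNAs.

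The median of the conserved miRNAs, -0.41, was -0.76 by clean reads, -0.088 by listed reads, -0.16 by DESeq2, -0.13 by the first 18 nt, -0.31 by bases 2 to 17, -0.17 with 3' variants assigned to 1 miRNA and -0.29 at 100 reads. It turned to 0.37 with TMM by class. The median of the bat-specific miRNAs, -0.0089, was in the same order -0.36, 0.31, 0.24, 0.28, 0.31, 0.28 and 0.64, and -0.45 with TMM by class. The sign of the bat-specific median changed with the scaling, and that of the conserved median changed with TMM by class alone. The share of clean reads was 30.99% in HA and 48.3% in AA by the first 18 nt, 35.4% and 54.6% by bases 2 to 17, 30.9% and 48.2% with variants assigned to 1 miRNA and 14.1% and 21.1% among reads of 18 to 25 nt, lower in HA in each.

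Of 71 named miRNAs with a ratio, 11 changed sign under 1 or more of the other rules for tags, of which 8, bat-J among them, had not passed 1 by exact tag and 3 had. The cause was not tested. By the first 18 nt, by bases 2 to 17 and with variants assigned to 1 miRNA, the ratio of miR-181c-3p was 1.16, 1.04 and 1.16, that of miR-221-5p 1.12, 1.002 and 1.11, and that of miR-9-3p 0.080, 0.28 and 0.078. Depth limits the 31 miRNAs with 1 to 9 reads, which have no ratio here.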
